A study of Mus musculus with 27 samples.

Results

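Cebpd, Cebpb, Socs3, Stat3, Fkbp5, Noct and Errfi1 are early genes of the acute phase response and of the response to stress hormones. All probe sets whose single platform symbol is one of these were taken, which gave 12 probe sets for 7 of the 8251 genes with such a symbol, and each probe set was kept apart. The genes were proposed with results of these arrays known. They are taken here as chosen by their levels at 2 h against untreated, although the list itself names no contrast. The comparison of 2 h with untreated islets is therefore a description and carries no test. The untreated arrays are part of that choice, so tests of other groups against them are not independent of it. The genes were followed through 27 Affymetrix arrays, in 9 groups of 3, that hold RNA of mouse islets cut out by laser capture. All mice, the untreated ones included, carried MycER and BclXL transgenes under an insulin promoter, which is active in beta cells. MycER is a Myc protein fused to a hormone-binding part of the oestrogen receptor, and BclXL is a survival protein. One group was untreated. In 4 groups the islets were taken 2, 4, 8 or 24 h after a systemic injection of 4-hydroxytamoxifen. In the last 4 groups mice had the drug daily for 21 days and were sampled on drug or 2, 4 or 6 days after it was stopped. The titles of the 21 day samples name 4-hydroxytamoxifen as well. The labels name no vehicle-injected mice and no mice without MycER, so effects of the injection, of the drug and of active MycER cannot be told apart. The sources used here give no strain, sex or age.

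The acute phase response is a rapid change in gene expression after injury, infection or stress, and cytokines of the interleukin 6 type drive much of it. Such cytokines activate the transcription factor Stat3, which turns on Socs3, and the Socs3 protein in turn shuts off the receptor and its kinases. Cebpd and Cebpb encode C/EBP transcription factors that act in the same response and are also early factors of fat cell formation. Fkbp5 encodes a co-chaperone that lowers the affinity of the glucocorticoid receptor for its hormone, and it is itself a standard target of that receptor. Noct encodes nocturnin, a rhythmically expressed protein related to deadenylases, and Errfi1 encodes an inhibitor of the epidermal growth factor receptor family that is induced by growth factors and by glucocorticoids.

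In RefSeq's GRCm38.p6 promoter table, 6 of the 7 genes had a window, from 250 bases before to 50 bases after a start site, and Errfi1 had a pair of them. Of 5 elements searched, 3 were found in these windows, and their surroundings are shown, Socs3 because Stat3 is its known activator, Fkbp5 because MycER was the protein switched on, and Errfi1 as the remaining match. In each line the element is in capitals.
Socs3 (chr11:117969502-117969530, minus strand): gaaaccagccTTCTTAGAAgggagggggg
Fkbp5 (chr17:28486303-28486328, minus strand): aagggccagaCACGTGggcagcggtg
Errfi1 (chr4:150855009-150855036, plus strand): ctgcgggcgtTGACGTCAcgttgtcgct
The Socs3 element has the STAT form TTCNNNGAA, lies at bases -154 to -146 from the start, and occurs in 8.30% of 32851 windows. The Fkbp5 element is the Myc E-box CACGTG, at -169 to -164, and occurs in 7.15% of windows. The Errfi1 element is the cyclic AMP response element TGACGTCA, at -51 to -44 of the second Errfi1 window, and occurs in 1.79% of windows. A palindromic glucocorticoid response element, with GNACA and TGTNC set 3 bases apart, is held by 0.475% of windows, and the C/EBP palindrome TTGCGCAA by 0.183%; neither matched a window of these genes. Each element reads the same on both strands, so both were covered.

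By the same assembly, the genes lie on different chromosomes, apart from Socs3 (chromosome 11, 117966079 to 117970336) and Stat3 (chromosome 11, 100886806 to 100939594). Cebpd lies on chromosome 16 (15887286 to 15889545), Cebpb on chromosome 2 (167688915 to 167690432) and Fkbp5 on chromosome 17 (28398753 to 28486149). Noct lies on chromosome 3 (51224447 to 51251654) and Errfi1 on chromosome 4 (150853796 to 150868889).

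Levels are the deposited log2 signals, and a difference of 1 is a factor of 2. The median level per array ran from 6.91 to 7.01, and r across probe sets, within a group, from 0.957 to 0.992. The 3' minus 5' signal of the Gapdh control, a check on RNA quality, differed between some groups. It was 4.77 to 4.92 at 21 days on and 3.46 to 4.06 at 4 days off. At 8 h it was 4.50 to 4.94, and at 24 h 3.70 to 3.90. For the actin control these groups overlapped. The part of RNA quality in the results was not tested. Bacterial control probe sets averaged between 3.58 and 7.14 over all arrays, so low levels were not shown to stand above background. Beta cell markers averaged between 9.29 and 10.36 in every array, with 15 of 23 listed genes measured. Tests are limma's moderated test over all 12422 non-control probe sets, with Benjamini-Hochberg adjustment, and a probe set was called at an adjusted p under 0.05. The labels do not say that replicates came from separate mice, so the p-values here reflect only how far these samples spread. A ± or SE beside a difference is limma's standard error, SD marks the spread of levels, and each group holds 3 arrays.

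For 7 of the 12 probe sets, covering Cebpd, Socs3, Fkbp5, Noct and Errfi1, all 2 h arrays lay above all untreated arrays. Over all probe sets this held for 5.31%, a figure given only as background, since the genes are taken as selected on it. None of the 12 lay wholly below the untreated arrays.

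**Figure D1:**
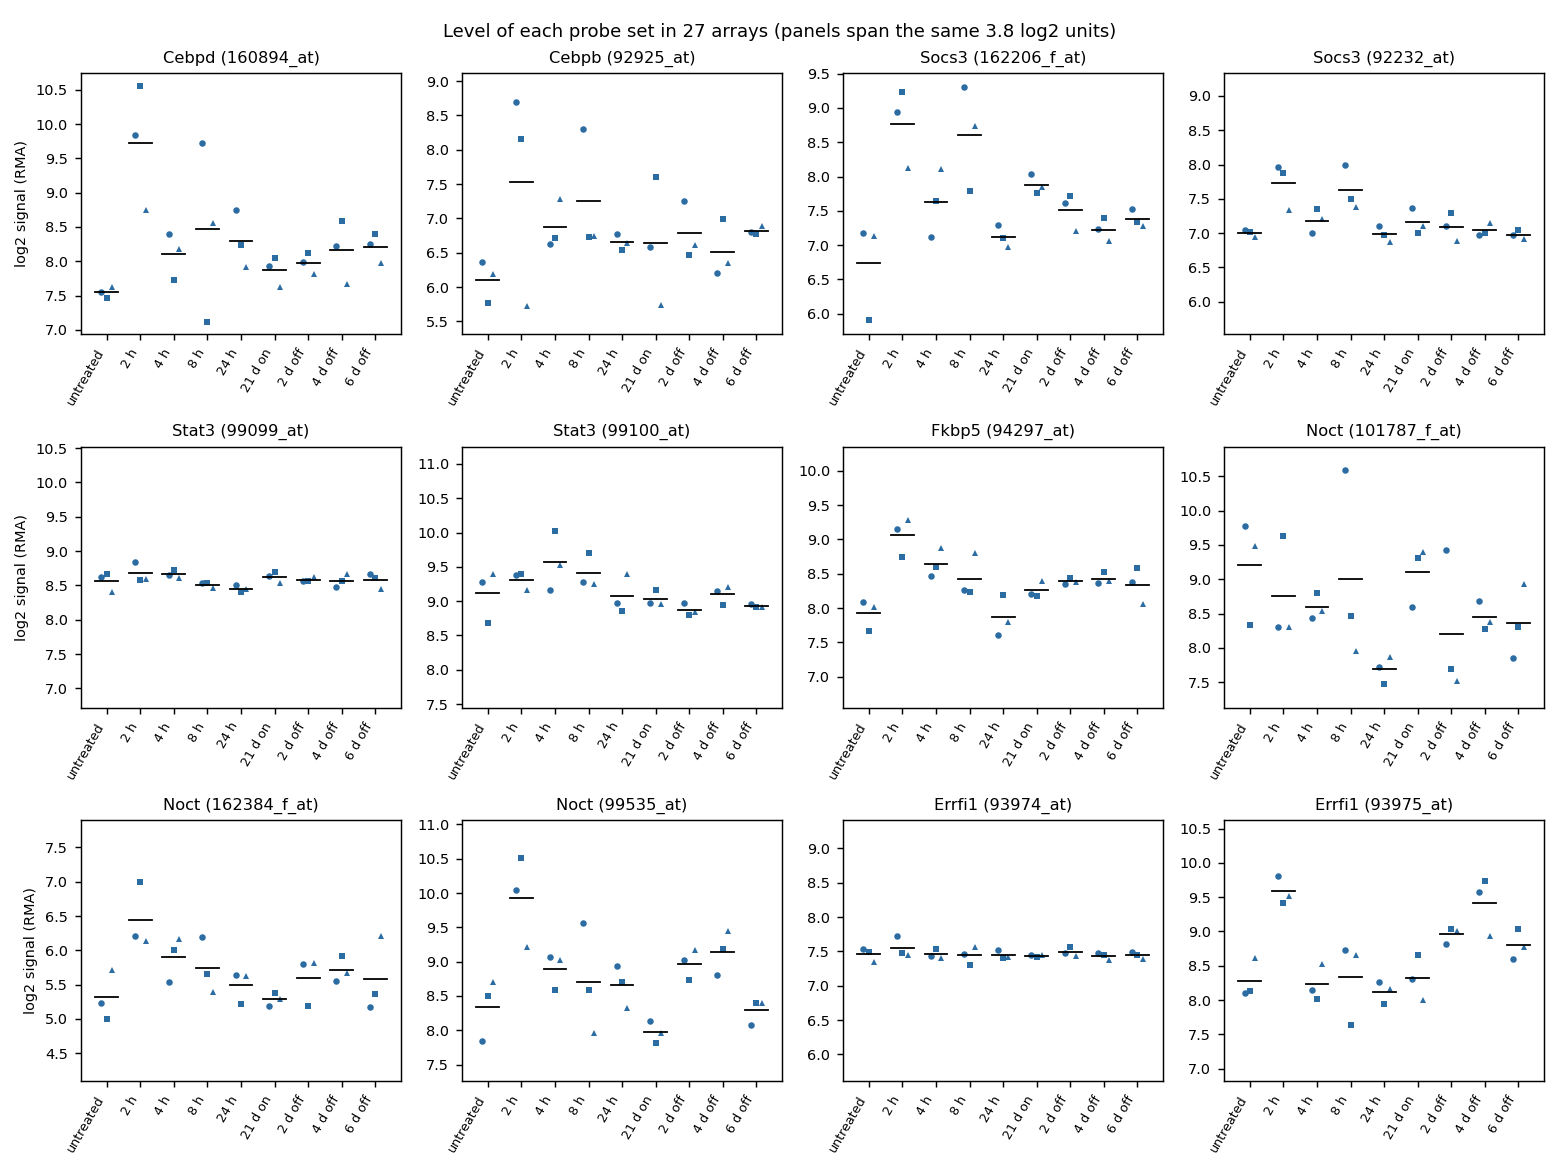
Log2 signal (y axis) of the 12 probe sets in each of the 9 groups (x axis); circles, squares and triangles are replicates 1, 2 and 3 and bars are means of 3 arrays. Cebpd, Socs3, Fkbp5, Noct (99535_at) and Errfi1 (93975_at) have 2 h arrays above all untreated arrays, Errfi1 93975_at is high again after withdrawal, and Stat3 99099_at and Errfi1 93974_at stay flat.

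Cebpd (160894_at) read 7.55, 7.47 and 7.62 in untreated islets and 9.84, 10.56 and 8.75 at 2 h. The groups were apart by more than 1 log2 unit, and the third 2 h array was well below the other two. The mean was 2.17 higher at 2 h, a 4.50-fold difference of means. Cebpb (92925_at) read 6.37, 5.76 and 6.19 in untreated islets and 8.70, 8.16 and 5.73 at 2 h. Here 2 arrays were far above the untreated ones and the third was below all of them, so the groups overlapped.

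Socs3 (162206_f_at) read 7.18, 5.91 and 7.14 in untreated islets and 8.94, 9.23 and 8.12 at 2 h. Its untreated replicate 2 was the lowest of all 27 arrays, and all the 2 h arrays lay above the untreated ones. The second Socs3 probe set, 92232_at, read 7.04, 7.01 and 6.95 against 7.97, 7.88 and 7.34, the same order over a narrower span. By the maker's naming, 162206_f_at holds probes that other transcripts may share. Stat3, the factor upstream of Socs3, differed little at the RNA level. Its 99099_at was 0.11 higher at 2 h and its 99100_at 0.19 higher, and for both the arrays overlapped.

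Fkbp5 (94297_at) read 8.09, 7.67 and 8.02 in untreated islets and 9.15, 8.75 and 9.29 at 2 h, a mean difference of 1.14. Errfi1 (93975_at) read 8.11, 8.13 and 8.61 against 9.81, 9.42 and 9.52, a difference of 1.30. In both genes the 2 h arrays lay close together and above the untreated ones, with SDs at 2 h of 0.28 for Fkbp5 and 0.20 for Errfi1. The other Errfi1 probe set, 93974_at, read between 7.30 and 7.72 in all 27 arrays, so the gene's probe sets disagree.

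Noct (99535_at) read 7.84, 8.50 and 8.70 in untreated islets and 10.04, 10.51 and 9.22 at 2 h, a difference of 1.58. Again the third 2 h array was the lowest of its group yet above the untreated ones. Noct 162384_f_at was 1.13 higher at 2 h, from a low mean of 5.32. Noct 101787_f_at went the other way, 0.45 lower with overlapping arrays, and its highest group was untreated. Both of the latter hold probes that may be shared with other transcripts.

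Other cell types differed along with these genes at 2 h. Adipoq, the fat cell hormone adiponectin, read 4.69, 4.41 and 5.35 in untreated islets and 8.35, 10.55 and 4.60 at 2 h, so it was high in the same 2 arrays as Cebpb. All 6 measured adipocyte markers of 8 listed had a higher mean at 2 h; their mean level was 6.34 to 6.63 in untreated arrays and 6.77 to 8.22 at 2 h. Of 40 measured leukocyte markers 33 had a higher mean at 2 h, with a range of 7.32 to 7.65 in untreated arrays and 7.75 to 8.72 at 2 h. All 15 measured acinar markers were higher too, at 7.96 to 10.85 against 10.03 to 11.38. The part of these cells in the 2 h levels was not tested. In bulk samples fewer cells of a type and less RNA per cell cannot be told apart, and the same is true of more.

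The 2 h arrays differed in these markers. In replicate 3 Adipoq lay within the untreated range, and there Cebpd (8.75), both Socs3 probe sets (8.12 and 7.34), Fkbp5 (9.29), Noct 99535_at (9.22) and Errfi1 93975_at (9.52) exceeded every untreated array. In that array 7 of the 12 probe sets did, against 10 in replicate 1 and 8 in replicate 2. Cebpb, at 5.73, was not among them. That array's adipocyte mean of 6.77 was just above the highest untreated array, and its leukocyte mean of 8.06 and acinar mean of 11.38 were above all of them.

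**Figure D2:**
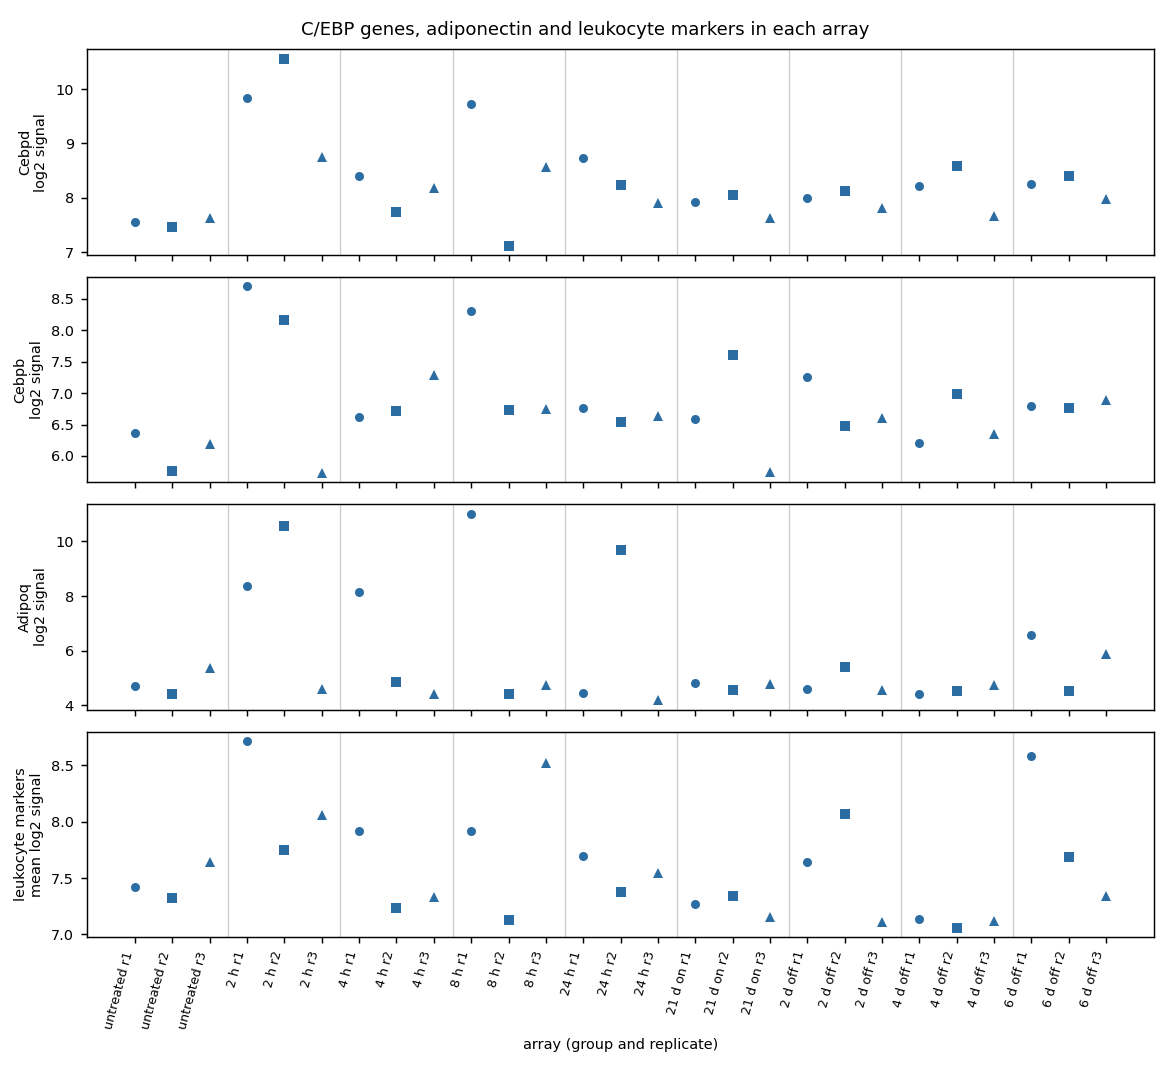
Log2 signal (y axis) of Cebpd (160894_at), Cebpb (92925_at), Adipoq and the mean of 40 leukocyte markers in each of the 27 arrays (x axis, group and replicate r1 to r3; circles, squares and triangles repeat the replicate). Adipoq is above 8 in 2 h replicates 1 and 2, 4 h replicate 1, 8 h replicate 1 and 24 h replicate 2, and Cebpb is highest in 3 of these arrays, 2 h replicates 1 and 2 and 8 h replicate 1.

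Over the 27 arrays, which share groups and cell content, Adipoq had r = 0.71 with Cebpd, 0.59 with Cebpb and 0.55 with Noct 99535_at. With Socs3 it was 0.51 for 162206_f_at and 0.57 for 92232_at. With Fkbp5 r was 0.18, and with Errfi1 93975_at 0.12. After each group's mean was taken off, r was 0.65 for Cebpd, 0.48 for Cebpb, 0.63 for Noct 99535_at, -0.19 for Fkbp5 and 0.07 for Errfi1 93975_at. For the Socs3 probe sets it was then 0.41 and 0.48, and for Noct 162384_f_at 0.18. Adipoq was not alone in this. With group means taken off, the mean of stromal (connective tissue) markers had r = 0.695 with Cebpd and 0.65 with Cebpb. It was 0.45 for Socs3 162206_f_at, 0.38 for Noct 99535_at, 0.42 for Errfi1 93975_at and -0.335 for Fkbp5. Over the 27 arrays the stromal r was 0.35 for Cebpd and 0.40 for Cebpb. The part of either cell type was not tested. Among single arrays, 8 h replicate 1 had Adipoq at 11.02 and Cebpd at 9.73, against 4.43 and 7.12 in 8 h replicate 2. In 24 h replicate 2 Adipoq was 9.68 and Cebpd 8.24, between the other 24 h arrays. For Cebpb the Adipoq-rich arrays 4 h replicate 1 (6.62) and 24 h replicate 2 (6.54) were the lowest of their groups.

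The other genes of these pathways were counted from lists, without the 7 genes themselves. At 2 h, again as a description, 25 of 29 inflammatory cytokines and NF-kB targets had a higher mean, with a median difference of 0.47, and 22 of 28 immediate early genes, with a median of 0.50. The median over all genes was -0.06. Of 33 other glucocorticoid responsive genes 20 were higher, with a median of 0.14. Acute phase proteins, the liver products for which the response is named, were higher in 13 of 31, with a median of -0.03, and the interleukin 6 and JAK-STAT list had a median of 0.02. The other SOCS genes differed by 0.17 for Socs1, 0.27 for Socs2, 0.11 for Cish and -0.20 for Socs5. Among the other C/EBP genes, Cebpa differed by 0.13, Cebpg by 0.18 and Ddit3, which encodes the stress factor CHOP, by -0.78.

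After 2 h the genes parted. Cebpd read 8.40, 7.73 and 8.18 at 4 h, below all 2 h arrays, and Noct 99535_at read 9.07, 8.59 and 9.03, also below them. Errfi1 93975_at was back among the untreated arrays at 4 h, at 8.14, 8.02 and 8.53. Fkbp5, at 8.47, 8.60 and 8.87, overlapped the 2 h arrays and lay above all untreated ones. These falls from 2 h rest on the group taken as the one that chose the genes and are given as a description.

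Against untreated islets none of the 12 probe sets was called at 4 h by limma, where 0.797% of all probe sets were called. An unadjusted p under 0.05 was held by 4 of the 12, beside 1036 of all 12422 probe sets. The nearest was Fkbp5, 0.72 ± 0.18 (SE) higher, with limma's adjusted p = 0.0605. It was called after quantile normalization, adjusted p = 0.0447, and without the lowest 40% of probe sets, adjusted p = 0.0465. Without 4 h replicate 3 the difference was 0.61, adjusted p = 0.315. Cebpd was 0.56 higher with a 95% interval of -0.38 to 1.49, and Cebpb 0.76 higher with an interval of -0.38 to 1.91, so both intervals hold a difference of 1. The interval of Errfi1 93975_at, -0.57 to 0.46, does not.

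At 8 h Socs3, the feedback inhibitor of the Stat3 pathway, was called higher than in untreated islets in both probe sets. At 4 h its 162206_f_at had read 7.12, 7.65 and 8.11, 0.88 higher than untreated and not called (adjusted p = 0.374), and between 4 h and 8 h it was not called either (0.98 higher, adjusted p = 0.645). Socs3 162206_f_at read 9.30, 7.79 and 8.74 at 8 h, all above the untreated arrays. It was 1.87 ± 0.34 (SE) higher, a 3.65-fold difference, with limma's adjusted p = 0.00683. Socs3 92232_at read 7.99, 7.50 and 7.38 and was 0.62 ± 0.16 higher, adjusted p = 0.0485. These were 2 of the 12 probe sets, against 1.70% of all probe sets called. The count over all probe sets, 211, was 71 without untreated replicate 2, 5 with the 6 arrays compared alone, and 132 without 8 h replicate 1 or 133 without replicate 3. Without untreated replicate 2, the low array, 162206_f_at was 1.45 higher, adjusted p = 0.0523. The untreated arrays are also part of the choice of the genes, so these tests are not independent of it. Without 8 h replicate 1, the array rich in Adipoq, 92232_at was 0.44 higher, adjusted p = 0.23, and its call also ended without any 1 of the untreated arrays or 8 h replicate 2, at adjusted p between 0.0639 and 0.162. It was 0.0515 with a variance trend and 0.114 with array weights.

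With the acinar, leukocyte and adipocyte marker means as covariates, chosen after the data were seen, Socs3 162206_f_at was 1.46 higher at 8 h, adjusted p = 0.0474, and 92232_at 0.50 higher, adjusted p = 0.201. Without the 3 arrays richest in adipocyte markers the values were 1.52, adjusted p = 0.0438, and 0.44, adjusted p = 0.271. Fitting the 6 arrays compared alone ended both calls, at adjusted p = 0.284 and 0.336. Neither Stat3 probe set was called: 99099_at differed by -0.06, with a 95% interval of -0.24 to 0.13, and 99100_at by 0.29, with an interval of -0.10 to 0.69. The other SOCS genes differed by 0.04 (Socs1), -0.28 (Socs2), -0.22 (Socs5) and -0.08 (Cish), none called. Of 29 inflammatory genes 1 rose at 8 h, where 1.70% of all probe sets were called. It was Sod2, a mitochondrial superoxide dismutase and NF-kB target, by 1.0 ± 0.23 (adjusted p = 0.0238). Of 28 immediate early genes and of 15 deadenylation genes 1 fell, Btg2, an antiproliferative gene on both lists, by 0.64 (SE 0.15, adjusted p = 0.033).

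The other genes spread widely at 8 h, with replicate 1 often highest. Cebpd read 9.73, 7.12 and 8.56, from above to below the untreated range, with a difference of 0.92 and an interval of -0.01 to 1.86. Cebpb read 8.30, 6.73 and 6.75, all above the untreated arrays, with adjusted p = 0.31. Fkbp5 read 8.26, 8.23 and 8.80, also above them, 0.50 ± 0.18 higher, adjusted p = 0.167. Noct 99535_at read 9.57, 8.59 and 7.96, and its replicate 1 was again the highest. Between 4 h and 8 h none of the 12 was called by limma, and 0.0242% of all probe sets were called. An unadjusted p under 0.05 was held by 2 of the 12, beside 920 of all 12422 probe sets.

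By 24 h Socs3 was back down, the only one of the 7 genes called between 8 h and 24 h. Socs3 162206_f_at read 7.30, 7.10 and 6.97 at 24 h, below all 8 h arrays, and fell by 1.49 on the log2 scale (SE 0.34, adjusted p = 0.0287). Socs3 92232_at, at 7.11, 6.97 and 6.87, fell by 0.64 (SE 0.16, adjusted p = 0.0399). Of all probe sets 1.80% were called, or 223. That count was 50 without 8 h replicate 1, 148, 98 and 58 without 24 h replicates 1, 2 and 3, and 0 with the 6 arrays alone. Both calls ended without 8 h replicate 1, at -1.14, adjusted p = 0.194, and -0.46, adjusted p = 0.253. They also ended without any 1 of the 24 h arrays, at adjusted p from 0.0536 to 0.16, and 162206_f_at without 8 h replicate 3, at adjusted p = 0.0684. Without the adipocyte-rich arrays they were -1.13, adjusted p = 0.327, and -0.45, adjusted p = 0.442, and with marker covariates -1.41, adjusted p = 0.0775, and -0.55, adjusted p = 0.169. Without the leukocyte-rich arrays 162206_f_at was -1.42, adjusted p = 0.0806, and with the 6 arrays compared alone the adjusted p were 0.181 and 0.221.

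Fkbp5 followed the same course down, at 7.61, 8.19 and 7.80 at 24 h, below all 8 h arrays, but its difference of -0.56 was not called, adjusted p = 0.113. Its 24 h mean of 7.87 was the lowest of the 9 groups. Against untreated islets none of the 12 probe sets was called at 24 h by limma, and 1.38% of all probe sets were called. An unadjusted p under 0.05 was held by 1 of the 12, Noct 101787_f_at, beside 1471 of all 12422 probe sets. Cebpd, at 8.74, 8.24 and 7.91, still lay above all untreated arrays, 0.75 higher with an interval of -0.18 to 1.68. Among acute phase proteins 1 of 31 was called higher at 24 h and none lower. It was Itih4, an inter-alpha-trypsin inhibitor heavy chain, 0.99 ± 0.14 higher, adjusted p = 0.000617. Acinar markers averaged 11.47 to 12.07 at 24 h, above every untreated array, and their part was not tested.

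After 21 days on drug 1 of the 12 probe sets was called against untreated islets, and it was for Socs3. That share was no larger than the share over all probe sets. Socs3 162206_f_at read 8.04, 7.76 and 7.84, above all untreated arrays, and was 1.14 ± 0.34 higher, adjusted p = 0.0305. Its other probe set read 7.37, 7.0 and 7.11 and was 0.16 higher, with an interval of -0.17 to 0.49. This was 1 of 12, where 14.6% of all probe sets were called. Their number, 1819, was 1140 without 21 day replicate 2. Without untreated replicate 2 the difference was 0.72, adjusted p = 0.183, so the low array moved it by over 1.5 times. The call also ended without any 1 of the 21 day arrays, at adjusted p from 0.0615 to 0.0926, and with the 6 arrays compared alone, at 0.0558. The untreated arrays are taken as part of the choice of the genes. The comparisons of 4 h, 8 h, 24 h, 21 days and 6 days off with untreated islets share the same 3 untreated arrays. Likewise, every comparison that involves 21 days on, those with days off included, uses the same 3 arrays on drug.

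No other probe set of the 7 genes was called at 21 days. Fkbp5 read 8.21, 8.17 and 8.39, above all untreated arrays, 0.33 higher with an interval of -0.04 to 0.70. Errfi1 93975_at differed by 0.04 with an interval of -0.48 to 0.55. Noct 99535_at read 8.14, 7.81 and 7.96, the lowest mean of the 9 groups at 7.97 ± 0.17 (SD). Against 24 h none of the 12 was called by limma, while 20.8% of all probe sets were. An unadjusted p under 0.05 was held by 4 of the 12, beside 4297 of all 12422 probe sets. Noct 99535_at lay below all 24 h arrays, at -0.68, adjusted p = 0.144. Noct 101787_f_at lay above them, at 1.41, adjusted p = 0.0732, so the gene's probe sets went opposite ways.

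The lists around these genes held rises and falls at 21 days, where 14.6% of all probe sets were called. Of 34 glucocorticoid responsive genes 4 rose and 3 fell, with a median difference of 0.04 beside 0.03 over all genes. Gadd45b, a stress-induced growth regulator, rose by 1.81 ± 0.35 (adjusted p = 0.0016), and Txnip, an inhibitor of thioredoxin, by 1.37 ± 0.20 (adjusted p = 0.000128). The metallothionein Mt2, a metal-binding protein induced by metals and glucocorticoids, fell by 1.37 (SE 0.27, adjusted p = 0.00187), and Gadd45g fell by 1.24 (SE 0.18, adjusted p = 0.000142). Of 31 genes of the interleukin 6 and JAK-STAT list none rose and 4 fell, with a median of -0.16; Ptpn1, a tyrosine phosphatase, fell by 0.78 (adjusted p = 0.00385) and Jak1, a kinase upstream of Stat3, by 0.44 (adjusted p = 0.0408).

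Among 28 immediate early genes 5 rose and 2 fell at 21 days, beside 14.6% of all probe sets called. The transcription factors Atf3 and Jun rose by 1.31 ± 0.34 (adjusted p = 0.0127) and by 1.0 ± 0.13 (adjusted p = 6.5e-05), and the nuclear receptor Nr4a1 fell by 0.82 (SE 0.23, adjusted p = 0.0198). Of 13 genes of the glucocorticoid receptor and its chaperones none rose and 1 fell. It was Fkbp4, a co-chaperone related to Fkbp5, which fell by 0.68 (SE 0.18, adjusted p = 0.0126). Of 17 ErbB genes 1 rose, the receptor Erbb3, by 1.30 ± 0.26 (adjusted p = 0.00223). In the deadenylation list 2 of 15 rose and 1 fell, among them Btg1, which was 1.15 ± 0.36 higher (adjusted p = 0.0354), and Zfp36l2, an RNA-decay factor, which fell by 0.81 (SE 0.22, adjusted p = 0.0149).

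Once the drug was stopped, 1 probe set of Errfi1 and 1 of Noct were called higher, at 4 days off only. No other probe set of the 7 genes was called. Errfi1 93975_at read 8.31, 8.65 and 8.00 on drug, 8.82, 9.04 and 9.01 at 2 days off, 9.57, 9.73 and 8.94 at 4 days off and 8.60, 9.03 and 8.77 at 6 days off. The 2 day and 4 day arrays lay above all arrays on drug. At 4 days the difference was 1.09 ± 0.25 (SE), a 2.13-fold rise, adjusted p = 0.0192. Noct 99535_at read 9.02, 8.73 and 9.17 at 2 days off, 8.80, 9.19 and 9.45 at 4 days and 8.07, 8.40 and 8.40 at 6 days. It too lay above all arrays on drug at 2 and 4 days, and at 4 days it was 1.18 ± 0.33 higher, adjusted p = 0.0418.

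These were 2 of 12 probe sets at 4 days off, against 6.01% of all probe sets called. That share, 746 probe sets, rested on single arrays. It was 1 probe set without 4 day replicate 1, 43 and 154 without 21 day replicates 2 and 1, 269 and 241 without 4 day replicates 2 and 3, and 3360 with array weights. At 2 days off none was called by limma, beside 0.153% of all probe sets. Errfi1 93975_at was 0.64 higher, adjusted p = 0.234, and Noct 99535_at 1.0 higher, adjusted p = 0.18. These 2 of the 12 had an unadjusted p under 0.05, beside 2002 of all 12422 probe sets. At 6 days off none was called, and 0.274% of all were called. None of the 12 had an unadjusted p under 0.05, beside 1715 of all 12422 probe sets. Errfi1 93975_at was then 0.48 higher than on drug, with an interval of -0.04 to 1.0. The other probe sets of both genes were not called at 4 days off: Noct 162384_f_at was 0.43 higher, Noct 101787_f_at differed by -0.66 and Errfi1 93974_at by 0.00.

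The Noct call ended without any 1 of the 6 arrays compared, at adjusted p from 0.0552 to 0.148, and after quantile normalization, at 0.0567. The difference stayed between 1.03 and 1.35 when 1 array was left out. The Errfi1 call ended without 21 day replicate 1 (1.09, adjusted p = 0.0591), 4 day replicate 1 (1.02, adjusted p = 0.102) or 4 day replicate 2 (0.94, adjusted p = 0.0709), and held without each of the other three. With the marker covariates both held, at 1.18, adjusted p = 0.012, for Errfi1 and 1.18, adjusted p = 0.0133, for Noct. These covariates are the acinar, leukocyte and adipocyte means and hold no islet cell markers. Adipoq was at 4.56 to 4.82 on drug and at 4.42 to 4.75 at 4 days off, and leukocyte markers averaged 7.16 to 7.34 and 7.06 to 7.13. The mean of all 6 adipocyte markers was 6.48 to 6.62 on drug and 6.51 to 6.65 at 4 days off; among them Pparg was higher without overlap, at 4.53 to 4.94 against 5.22 to 5.42. Acinar means overlapped, at 7.11 to 7.77 and 6.89 to 8.81. Beta cell marker means were higher, at 9.53 to 9.73 on drug and 10.12 to 10.27 at 4 days off. Means of other islet endocrine markers were 9.29 to 9.97 and 9.64 to 10.57. Over 27 arrays these had r = 0.52 with Errfi1 93975_at and 0.18 with Noct 99535_at, and 0.19 and 0.44 after the group means were taken off. For the beta cell marker mean r was 0.35 with Errfi1 93975_at and 0.44 with Noct 99535_at, and 0.09 and 0.34 after. The part of islet cell content was not tested.

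**Figure D3:**
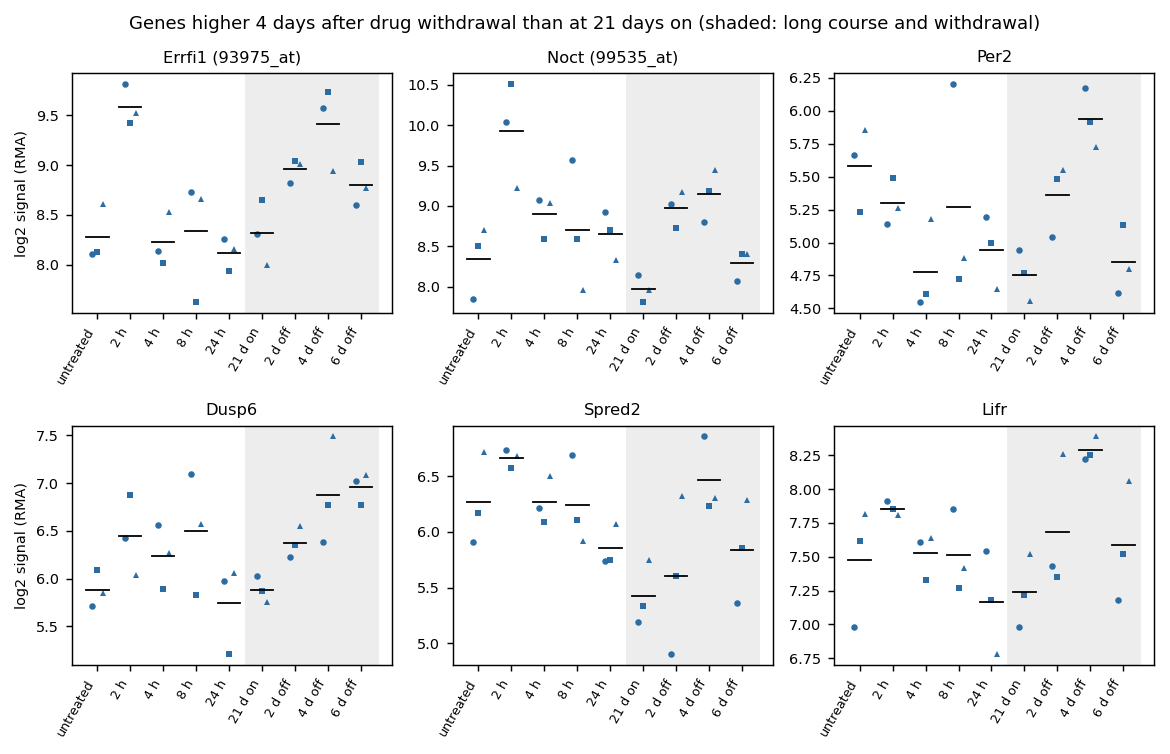
Log2 signal (y axis) of Errfi1 (93975_at), Noct (99535_at), Per2, Dusp6, Spred2 and Lifr in the 9 groups (x axis); circles, squares and triangles are replicates 1, 2 and 3, bars are means, and the shaded part holds 21 days on drug and 2, 4 and 6 days off. All 6 are higher at 4 days off than at 21 days on, and Errfi1 reads 8.94 to 9.73 at 4 days off against 8.00 to 8.65 on drug.

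The lists around Errfi1 and Noct held few calls at 4 days off, and these rest on a comparison in which 1 of all probe sets was called without 4 day replicate 1. In the list of ErbB receptors, ligands and feedback genes 3 of 17 rose and none fell, beside 6.01% called over all probe sets, with a median of -0.14 beside -0.06 over all genes. They were Spred2, an inhibitor of Ras signalling (1.04 ± 0.30, adjusted p = 0.0434), Dusp6, a phosphatase of the kinase ERK (0.99 ± 0.30, adjusted p = 0.0498), and Cdc42, a small GTPase (0.81 ± 0.22, adjusted p = 0.0392). Among 18 circadian clock genes Per2 rose by 1.18 ± 0.28 (adjusted p = 0.0243), and Per3 fell by 0.31 (SE 0.09, adjusted p = 0.047). Per2 read 4.94, 4.77 and 4.56 on drug and 6.17, 5.91 and 5.72 at 4 days off, a low signal throughout. The labels give no time of day at sampling.

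In the interleukin 6 and JAK-STAT list 1 of 31 rose and 2 fell at 4 days off, beside 6.01% of all probe sets called. Lifr, the receptor of leukaemia inhibitory factor, rose by 1.05 ± 0.26 (adjusted p = 0.0247), from 6.98, 7.22 and 7.52 to 8.22, 8.25 and 8.39. Pim1, a kinase induced by Stat3 and Stat5, fell by 0.39 (SE 0.11, adjusted p = 0.0418), and Il10 by 0.31 (adjusted p = 0.0449). Socs3 162206_f_at lay below all arrays on drug at 2, 4 and 6 days off, at 7.23, 7.39 and 7.06 at 4 days, but its difference of -0.65 was not called, adjusted p = 0.216. Of 29 inflammatory genes 1 rose and 1 fell. The interleukin 1 receptor Il1r1 rose by 1.17 ± 0.27 (adjusted p = 0.0185), after a fall of 1.04 from untreated to 21 days (adjusted p = 0.0113). Both differences use the same 21 day arrays, so they are not independent.

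The list of glucocorticoid responsive genes held a few calls in both directions at 4 days off, and Fkbp5 was not called. It differed by 0.17 at 4 days off, with an interval of -0.20 to 0.54. Of 34 glucocorticoid responsive genes 1 rose and 3 fell, beside 6.01% of all probe sets called. Gadd45g rose by 0.65 ± 0.18 (adjusted p = 0.0399). Ddit4, an inhibitor of the growth kinase mTOR, fell by 1.05 (SE 0.27, adjusted p = 0.0315), Txnip by 0.81 (SE 0.20, adjusted p = 0.0247) and Irs2, an insulin receptor substrate, by 0.42 (SE 0.11, adjusted p = 0.0334). Of 31 acute phase proteins none was called in either direction by limma, with a median of -0.21 beside -0.06 over all genes, and 3 of 31 had a higher mean. At an unadjusted p under 0.05, 1 was higher and 5 were lower, beside 3478 of all 12422 probe sets in either direction.

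**Figure D4:**
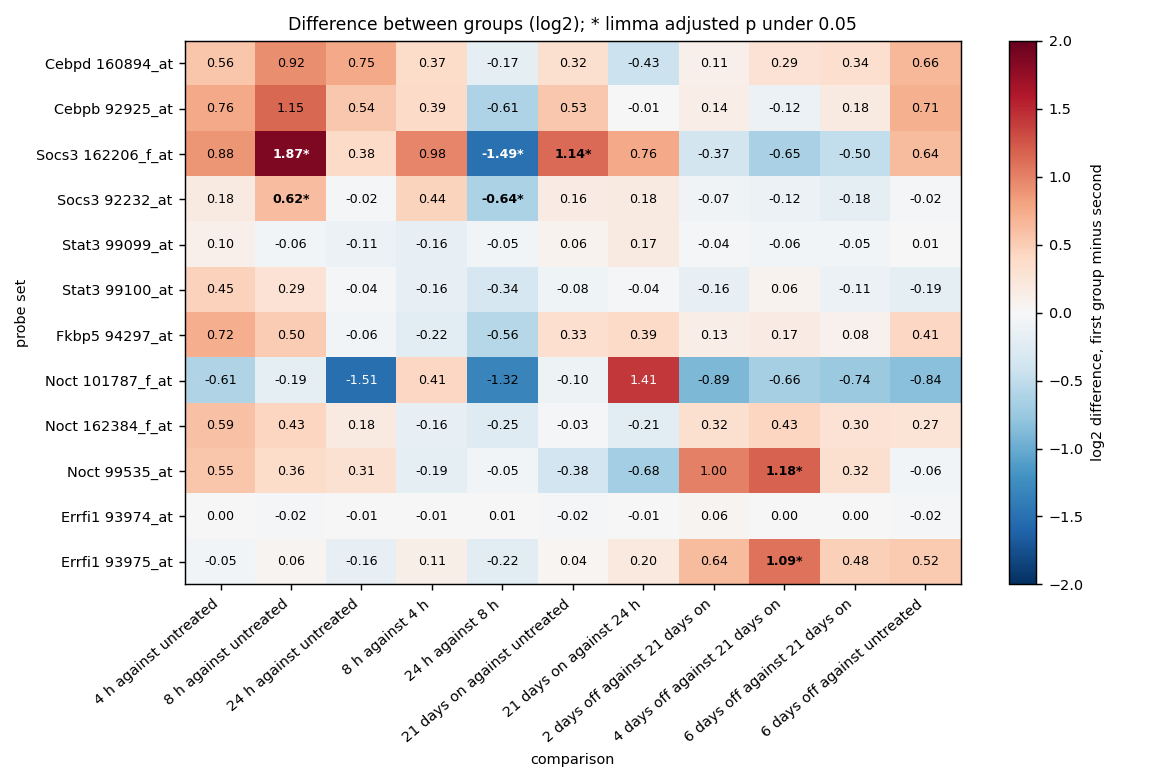
Log2 difference of the 12 probe sets (rows) in the 11 tested comparisons (columns), printed in each cell as first group minus second and coloured from -2 to 2; an asterisk marks limma's adjusted p under 0.05. The called cells are both Socs3 probe sets at 8 h against untreated and at 24 h against 8 h, Socs3 162206_f_at at 21 days, and Noct 99535_at and Errfi1 93975_at at 4 days off.

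Between 6 days off and untreated islets 11.7% of all probe sets were called. Of the 12 probe sets none was called by limma. An unadjusted p under 0.05 was held by 1 of them, Fkbp5, beside 3218 of all 12422 probe sets. Cebpd read 8.25, 8.40 and 7.97 at 6 days off and Cebpb 6.80, 6.77 and 6.89, both above all untreated arrays. The differences were 0.66 with an interval of -0.27 to 1.59 for Cebpd and 0.71 with an interval of -0.43 to 1.86 for Cebpb. Fkbp5 was 0.41 ± 0.18 higher, adjusted p = 0.139. Of the C/EBP family Ddit3 fell by 0.95 against untreated (SE 0.24, adjusted p = 0.0123).

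In the order of group means, 2 h was first for Cebpd, Cebpb, both Socs3 probe sets, Fkbp5, Noct 99535_at and Errfi1 93975_at. It was also first for Noct 162384_f_at and for the flat Stat3 99099_at and Errfi1 93974_at. The group means of these flat probe sets spanned only 0.22 and 0.11. The genes are taken as chosen on the 2 h and untreated groups, so the places of these groups are a description. The order behind 2 h differed between genes. For Cebpd and Cebpb 8 h came second and untreated last, with means of 9.72, 8.47 and 7.55 for Cebpd and 7.53, 7.26 and 6.11 for Cebpb. For Errfi1 93975_at and Noct 99535_at 4 days off came second, at 9.41 and 9.15. In each of these orders neighbouring groups overlapped, except that the untreated Cebpd arrays lay below those of its neighbour, 21 days on, the untreated Fkbp5 arrays likewise, and the 8 h arrays of Socs3 92232_at lay above those of 4 h.

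The spread within groups also set the genes apart. The residual SD was 0.59 for Cebpd, 0.73 for Cebpb and 0.45 for Socs3 162206_f_at, beside a median of 0.18 over all probe sets. It was 0.22 for Fkbp5, 0.09 for Stat3 99099_at and 0.09 for Errfi1 93974_at. Cebpd, Cebpb and Socs3 162206_f_at rose and fell together from array to array: over 27 arrays r was 0.72 between Cebpd and Cebpb, 0.73 between Cebpd and Socs3 162206_f_at and 0.69 between Cebpb and Socs3 162206_f_at. After the group means were taken off these were 0.66, 0.70 and 0.60. Between Cebpd and Fkbp5 r was 0.46 before and -0.15 after. Each r over 27 arrays includes the 2 h and untreated arrays, on which the genes are taken as chosen, and is a description.

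The probe sets most like each gene over the 27 arrays, which share groups and cell content, repeated this split. The 3 nearest of Cebpd were Ifi204 (r = 0.895), Slc10a6 (0.887) and Cxcl1, a chemokine that attracts neutrophils (0.88). Those of Cebpb were the same Cxcl1 probe set (0.86), Msr1 (0.845) and another Cxcl1 probe set (0.84). Those of Socs3 162206_f_at were Slc10a6 (0.78), that other Cxcl1 probe set (0.775) and C1ra (0.77). Those of Stat3 99100_at were Cpeb1 (0.79), Riox2 (0.77) and Polr1b (0.77). The Cxcl1 probe set near Cebpd read 11.11, 11.00 and 6.39 at 2 h and 10.41, 6.51 and 7.12 at 8 h. In untreated islets it read 6.36, 6.12 and 6.10, so it was high in the 3 arrays in which Cebpb was highest. The nearest of Noct 99535_at were Thbd, which encodes thrombomodulin (0.76), Phlda1 (0.75) and F3, which encodes tissue factor (0.74). Those of Errfi1 93975_at were Ifrd1 (0.75), Nfe2l2, the antioxidant response factor (0.74), and Acot9 (0.74). Those of Fkbp5 were Sh2b3, an adaptor of cytokine signalling (0.72), Bid, a cell death gene (0.70), and Tbc1d14 (0.67), and none of these was among the nearest of the C/EBP genes.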

How the data were processed

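RNA of 27 samples was measured on 1 array each. Per the labels, the RNA went through 2 rounds of linear amplification and carried a biotin label. The deposited values are log2 signals, made with RMA per the submitters' processing notes. Which version and settings were used is not stated there. The RMA method corrects background, normalizes by quantiles and summarises probes, and amplification can distort levels, so levels of different probe sets are not compared.

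Of 12488 probe sets, 66 controls were left out and 12422 tested with limma 3.58.1 in R 4.3.3 (lmFit and eBayes, all 27 arrays, 9 group means, 18 residual degrees of freedom, no minimum fold), with Benjamini-Hochberg adjustment within a comparison. A permutation of 3 arrays against 3 cannot give p under 0.1, so none is given. The fit was also run on simulated data with independent noise for each probe set and array. Such data hold no shifts shared by many probe sets, so they cannot speak to differences in cell content. Arrays give no depth; 3 per group limit the precision. The 7 genes, the 11 gene lists (226 of 281 symbols measured) and the marker lists were chosen with earlier results of these data known, and support nothing by themselves. For a list gene the probe set of highest mean level was used. Named were all probe sets of the 7 genes, up to 3 called genes per list and direction, all genes of lists of at most 8, the 3 probe sets nearest to each gene by Pearson correlation, and marker genes; Adipoq was singled out after its values were seen. Same-numbered replicates were checked for pairing: in 0 of 11 comparisons did all pairs correlate above 0.1. Alternatives are given in the closing section.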

Additional observations from a re-analysis of the deposited data

How the results depend on the processing

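Direction under the settings tried was checked only for differences of the 12 probe sets with an unadjusted p under 0.05. None of those changed direction. Called probe sets at 4 h were 0, and 1 (Fkbp5) after quantile normalization, without the lowest 40% of probe sets, without 3 leukocyte-rich arrays or without 3 adipocyte-rich arrays. At 8 h they were 2, and 1 with a variance trend, with array weights, without the adipocyte-rich arrays or with marker covariates, 0 with the 6 arrays compared alone and 0 to 2 without 1 array. From 8 h to 24 h they were 2, and 1 without the leukocyte-rich arrays, 0 without the adipocyte-rich arrays, with covariates or with the 6 arrays alone, and 0 to 2 without 1 array. At 21 days they were 1, and 0 with the 6 arrays alone and 0 to 1 without 1 array. Between 24 h and 21 days they were 0, and 3 with array weights or the 6 arrays alone and 1 without the adipocyte-rich arrays. At 2 days off they were 0, and 1 with array weights; at 4 days off 2, and 1 after quantile normalization and 0 to 1 without 1 array; at 6 days off against untreated 0, and 2 with array weights. The cause was not tested. Fitting 6 arrays leaves fewer samples. The replicate block, for numbers that share no known source and whose pairs correlated between -0.21 and 0.36, left the counts at 2 for 8 h, 2 for 24 h against 8 h, 1 for 21 days and 2 for 4 days off. The leukocyte, adipocyte and covariate settings were chosen after seeing the data.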
